A study of Saccharomyces cerevisiae with 21 samples.

Results

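Yeast cells that lack Swi3 were set directly against yeast cells that lack Snf2, with no wild type between them. The comparison takes 6 of the 21 libraries of the series, 3 of the group swi3del and 3 of the group snf2del, and 6394 genes of the 6407 in the deposited table, those with at least 1 TPM in at least 3 of the 6 libraries. TPM is a transcript level scaled to gene length and to the sum over each library. All strains are Saccharomyces cerevisiae of the W303 background. Per the labels, both groups lack a chromosomal gene and carry the marker LEU2: the genotypes are given as swi3[delta] with LEU2 and snf2[delta] with LEU2. The wild types SWI3 and SNF2, with 3 libraries each, also lack the chromosomal copy of their gene and carry a wild-type copy of it, and they serve here only for values set beside the deletions. Cultures grew in YPD, a rich medium with glucose, and were taken in mid-log phase, with the replicates of a group grown on different days, and poly(A) RNA was sequenced. The labels do not say whether a group is 1 clone or several.

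Swi/Snf is a remodelling complex that uses ATP to slide or evict nucleosomes and so opens promoters, or keeps them covered. Snf2 is its ATPase, the motor of the complex. Swi3 is a scaffold subunit that holds other subunits together, and mutants of either gene are classically known for the same defects in growth on sucrose, in mating-type switching and in the use of phosphate and inositol genes.

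The 6 libraries had TPM sums between 961639 and 997493, and 6379 to 6393 genes reached 1 TPM in a library. TPM keeps no record of read numbers, so the depth behind each value is unknown. Over the genes tested, libraries of swi3del differed from each other by a root mean square of 0.280 to 0.292 on the log2 scale of TPM + 1, and those of snf2del by 0.240 to 0.282. By these distances within a group no library stood apart. Replicate 2 of snf2del lay nearer to the wild-type libraries (0.965 to 0.999) than replicates 1 and 3 of snf2del did (1.01 to 1.08). The marker LEU2, an enzyme of leucine synthesis (YCL018W), had 137, 137 and 134 TPM in swi3del and 141, 174 and 138 TPM in snf2del, so both deletions carried it at like levels, while its mean was 0.226 TPM in SWI3 and 0.336 TPM in SNF2. The transcript of SNF2 is not analysed here, so loss of SNF2 was not checked on its RNA. Every adjusted p below is from limma, two-sided, with Benjamini-Hochberg adjustment over all genes tested, and a gene is called where it is under 0.05. Values in TPM are levels, and log2 differences are swi3del minus snf2del of TPM + 1 with their standard error, which understates the change of genes with low levels. In bulk RNA of this kind, fewer cells that use a gene and less of its RNA per cell cannot be told apart.

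RNA levels of the 2 deletions were close to each other across the genome. Of 6394 genes, 1 was called higher in swi3del (0.0156% of those tested) and 3 were called higher in snf2del (0.0469%). The first was AQR1, and the others were SWI3, HSP42 and YER188C-A. SWI3 is the gene deleted in swi3del, so the strain itself sets its call, and SNF2, its counterpart, was not analysed. Among the called genes AQR1 and SWI3 alone had an estimated difference of 2-fold or more, and no test against 2-fold was run. At an unadjusted p under 0.05 there were 581 genes (9.09%), 203 of them higher in swi3del and 378 higher in snf2del. The counts rest on few libraries. Without replicate 1 or replicate 2 of swi3del, SWI3 was the only gene called, and without replicate 3 of swi3del there were 2 and 8 calls. Leaving out replicate 1 or 2 of snf2del gave 1 call in swi3del and 1 or 5 in snf2del, and in fits without a library of snf2del SWI3 itself no longer passed the filter on low levels.

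A missed threshold does not show that levels were alike, so the interval of each difference was examined. The 95% confidence interval of the difference lay wholly within 2-fold either way for 6179 of the 6394 genes (96.6%), and within 0.5 on the log2 scale for 5344 (83.6%). The precision depended on the level. Among the 5935 genes with a mean of at least 10 TPM, 5833 (98.3%) had an interval inside 2-fold, against 346 of the 459 genes below 10 TPM (75.4%). The median size of the difference was 0.0908, smaller than the median half-width of its interval, 0.224. The median of all signed differences was -0.02.

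**Figure D1:**
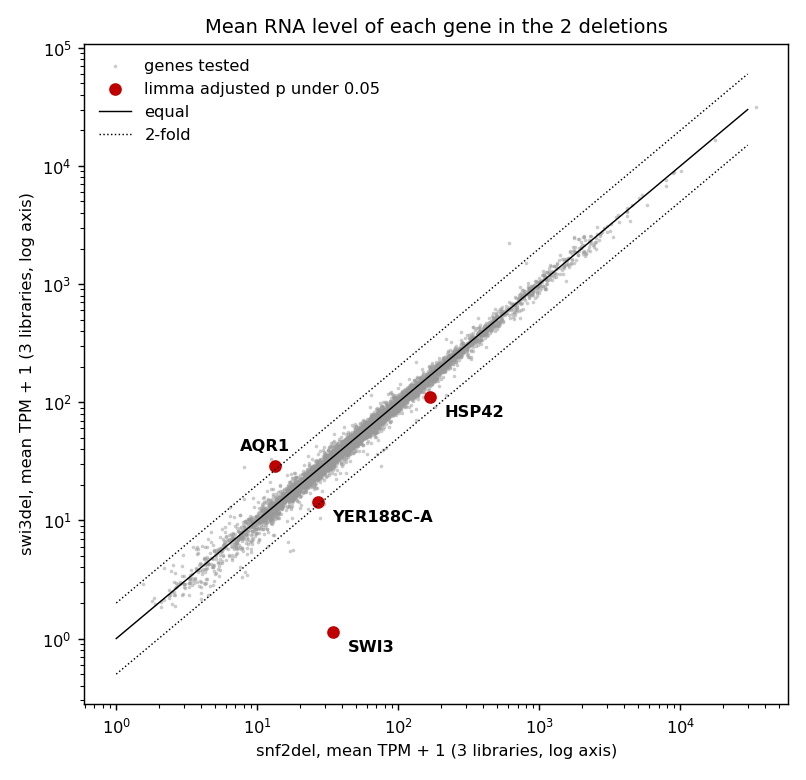
Mean level of each tested gene in snf2del (x axis) and swi3del (y axis), in TPM + 1 on log axes, n = 3 libraries each; the solid line marks equal levels and the dotted lines 2-fold. Nearly all points lie between the dotted lines, and SWI3, with 0.127 TPM in swi3del and 33.4 TPM in snf2del, lies far below them.

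Set against their wild types, the distances were several times wider. A library of swi3del and a library of snf2del differed by 0.267 to 0.329 (root mean square, log2 scale), a range that overlaps the distances within each group. A library of SWI3 and one of swi3del differed by 0.973 to 1.009, and one of SNF2 and one of snf2del by 0.979 to 1.072. The 2 wild types differed from each other by 0.310 to 0.395.

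SWI3, the scaffold subunit (YJL176C, chromosome X 92053 to 94530 on the minus strand in R64), was examined first because its absence defines a group. It had 0.173, 0.148 and 0.0589 TPM in swi3del and 32.9, 35.1 and 32.1 TPM in snf2del. The groups did not overlap, and the log2 difference was -4.93 ± 0.19 (limma adjusted p = 1.34e-07). The other 10 measured subunit genes of the complex were not called. Their log2 differences lay between -0.21 for SNF11 and 0.20 for ARP9, and the interval of each lay within 0.5 on the log2 scale. SWI1, the large DNA-binding subunit (YPL016W), had 18.8, 26.5 and 19.6 TPM in swi3del and 24.5, 26.8 and 22.4 TPM in snf2del, with overlapping groups. SNF5, a core subunit (YBR289W), had 24.5, 30.4 and 29.7 TPM in swi3del and 32.7, 33.0 and 31.8 TPM in snf2del. Its libraries did not overlap, yet its log2 difference of -0.20 ± 0.10 was not called (limma adjusted p = 0.581). SWP82, a subunit special to this complex (YFL049W), had 51.6, 55.6 and 67.5 TPM against 60.8, 49.3 and 59.6 TPM, and both deletions held it above the wild types, at 27.5 ± 1.40 and 26.3 ± 1.56 TPM.

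AQR1, a plasma membrane exporter of drugs and amino acids of the major facilitator family (YNL065W, chromosome XIV 503724 to 505484, plus strand), was the one gene called higher in swi3del. It had 27.4, 27.0 and 29.4 TPM in swi3del and 11.7, 10.5 and 15.2 TPM in snf2del. The groups did not overlap, and swi3del held 2.24-fold the mean of snf2del. The log2 difference was 1.12 ± 0.13 with an interval from 0.83 to 1.41 (limma adjusted p = 0.0097). The call was lost without replicate 1 or 2 of swi3del (limma adjusted p = 0.0585 and 0.0994), with differences of 1.13 and 1.14. Wild-type levels were 38.0 ± 2.49 TPM in SWI3 and 33.7 ± 4.16 TPM in SNF2 (SD, n = 3), so both deletions lay below their wild type and snf2del lay further below. The log2 change was -0.43 in swi3del (limma adjusted p = 0.00549) and -1.38 in snf2del (limma adjusted p = 1.37e-07). The 2 genes on either side, RPL9B, SUN4, YDJ1 and MTQ1, were not called, and their differences lay between -0.12 and -0.02. QDR1, the paralog of AQR1, had a log2 difference of -0.21 and was not called (limma adjusted p = 0.722). Of 21 listed genes of drug efflux and of its regulator Pdr1, AQR1 alone was called, and the list's median was -0.01.

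HSP42, a small heat-shock protein that gathers misfolded proteins into deposits (YDR171W, chromosome IV 806621 to 807748, plus strand), was higher in snf2del. It had 113, 108 and 108 TPM in swi3del and 165, 178 and 155 TPM in snf2del. The groups did not overlap, and the mean in snf2del was 1.51-fold that in swi3del. The log2 difference was -0.59 ± 0.08 (limma adjusted p = 0.0279). In 4 of the 6 fits that left out a library the call was lost, with limma adjusted p up to 0.139 and differences between -0.64 and -0.54. Both deletions held HSP42 far above the wild types, at 15.3 ± 1.69 TPM in SWI3 and 18.5 ± 0.949 TPM in SNF2, by 2.77 and 3.10 on the log2 scale. The difference of these rises was not called (limma adjusted p = 0.284).

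The 300 bases before the coding start of AQR1 (chrXIV:503424-503723, plus strand) and HSP42 (chrIV:806321-806620, plus strand) are shown, read from the R64 genome, since these are the called genes outside the deleted one with a sequence of their own. Capitals mark 2 kinds of short motif looked for on both strands. The stress response element of Msn2 and Msn4 was spelled AGGGG. A pair of heat-shock units, bound by Hsf1, was spelled GAANNTTC where head to head and TTCNNGAA where tail to tail, and overlapping matches were kept.
AQR1: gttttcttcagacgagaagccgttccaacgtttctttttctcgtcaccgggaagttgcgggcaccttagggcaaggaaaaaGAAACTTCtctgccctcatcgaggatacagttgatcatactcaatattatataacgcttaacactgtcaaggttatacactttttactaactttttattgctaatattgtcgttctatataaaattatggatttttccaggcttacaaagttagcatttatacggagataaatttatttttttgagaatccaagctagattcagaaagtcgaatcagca
HSP42: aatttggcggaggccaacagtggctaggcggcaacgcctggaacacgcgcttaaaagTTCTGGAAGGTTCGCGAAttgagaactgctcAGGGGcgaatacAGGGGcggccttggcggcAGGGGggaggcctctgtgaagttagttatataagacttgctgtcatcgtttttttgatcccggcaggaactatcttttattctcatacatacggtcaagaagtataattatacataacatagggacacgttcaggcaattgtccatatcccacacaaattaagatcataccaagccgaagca
HSP42 held 3 stress elements, the farthest 212 bases before the start, and 3 overlapping heat-shock pairs between 243 and 226 bases before it. AQR1 held 1 heat-shock pair, 219 to 212 bases before the start, and no stress element. Of 5945 windows of 300 bases before genes, 22.1% held a stress element and 0.521% held 3 or more; 22.5% held a heat-shock pair and 0.538% held 3 or more. The motifs and both genes were chosen after the values were seen, and a match describes letters only.

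YER188C-A, a small reading frame of unknown function (chromosome V 569608 to 569907, minus strand, within 20 kb of the end), was called near the threshold. It had 15.5, 13.9 and 10.2 TPM in swi3del and 26.8, 24.7 and 26.0 TPM in snf2del, without overlap. The log2 difference was -0.94 ± 0.14 (limma adjusted p = 0.0492), and the wild types stood at 11.3 ± 1.31 and 11.8 ± 2.15 TPM, near swi3del. The genome holds 32 other stretches like it, with up to 96.3% identity, so its reads may be shared among copies and its value is uncertain. The call was lost in 5 of 6 fits that left out a library, with limma adjusted p up to 0.235.

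**Figure D2:**
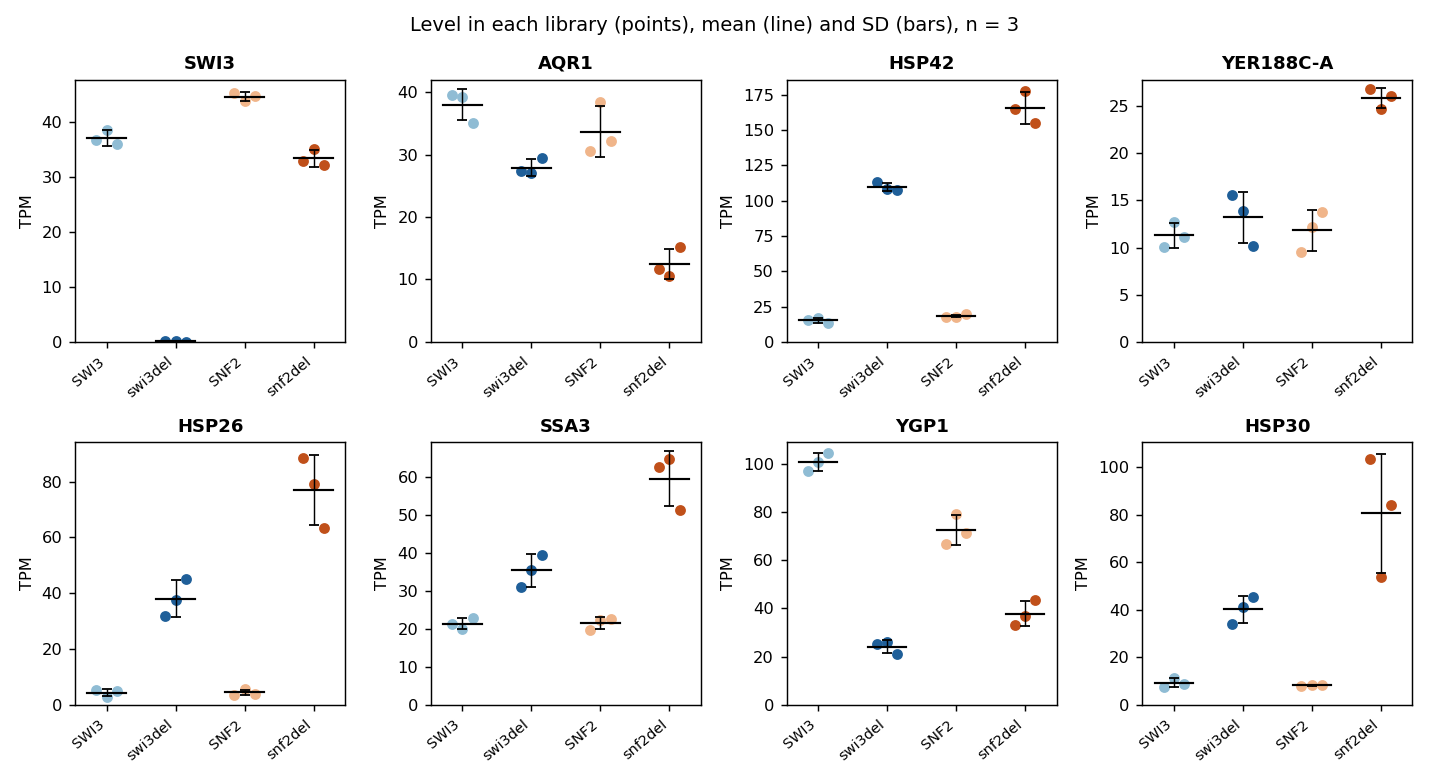
Level in TPM (y axis, from 0) of the 4 called genes and of HSP26, SSA3, YGP1 and HSP30 in each library of SWI3, swi3del, SNF2 and snf2del; points are libraries, lines the mean and bars the SD, n = 3. In each panel the points of swi3del and snf2del do not overlap, and HSP26 stands at 4.27 and 4.39 TPM in the wild types against 38.0 and 77.0 TPM in the deletions.

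General stress genes and chaperones leaned to one side. These lists, and the genes named from them, were chosen with earlier results of these data known, so they are described without a test. Of 37 measured targets of the stress factors Msn2 and Msn4, 16 had all 3 libraries of snf2del above all 3 of swi3del and 0 the reverse, beside 9.77% and 4.82% of all genes. HSP42 was the single member called. Of 23 chaperones under Hsf1, the heat-shock factor, 13 were without overlap higher in snf2del and 0 the reverse. The lists share 4 genes, HSP42, SSA3, SSA4 and HSP104. The median log2 difference was -0.23 in both lists, and -0.02 over all genes. Of the 56 genes in either list, 51 lay below 0, beside 56.9% of all genes, and 29 had an unadjusted p under 0.05, all higher in snf2del. Over all 6394 genes 378 had such a p with the higher level in snf2del and 203 with the higher level in swi3del.

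HSP26, a small heat-shock protein that binds unfolded proteins, had 31.6, 37.3 and 45.2 TPM in swi3del and 88.4, 79.2 and 63.4 TPM in snf2del. The groups did not overlap, and the log2 difference was -1.0 ± 0.15 (limma adjusted p = 0.0899). SSA3, an inducible chaperone of the Hsp70 family, had 31.0, 35.5 and 39.5 TPM in swi3del and 62.4, 64.6 and 51.1 TPM in snf2del. Its groups did not overlap either, with a difference of -0.73 ± 0.12 (limma adjusted p = 0.0688). HSP30, a heat-shock protein of the plasma membrane, had 33.9, 41.3 and 45.3 TPM in swi3del and 104, 54.0 and 84.3 TPM in snf2del. Its spread in snf2del was wide, and the difference of -0.95 ± 0.24 was not called (limma adjusted p = 0.361). HSP82, the inducible Hsp90 chaperone, had 188, 180 and 197 TPM in swi3del and 256, 265 and 218 TPM in snf2del. Its difference of -0.38 ± 0.09 was not called (limma adjusted p = 0.220). HSC82, its constitutive partner, had a difference of -0.03 with overlapping groups. HSP12, a membrane-protecting stress protein, had 54.9, 71.5 and 74.9 TPM in swi3del and 56.9, 140 and 62.6 TPM in snf2del, so its wide interval, from -1.29 to 0.79, came with 1 high library. CTT1, the cytosolic catalase, had overlapping groups and a difference of 0.08.

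YGP1, a secreted glycoprotein of starved cells, moved the other way against its wild types. It had 25.3, 25.9 and 21 TPM in swi3del and 33.2, 37.0 and 43.5 TPM in snf2del, beside 101 ± 3.81 TPM in SWI3 and 72.5 ± 6.23 TPM in SNF2. Both deletions lay below their wild type, and snf2del stood higher than swi3del by 0.63 ± 0.12 on the log2 scale, which was not called (limma adjusted p = 0.106). With all 21 libraries in the fit, which then share 1 estimate of the spread, SSA3, YGP1, HSP30 and HSP82 were called as higher in snf2del, with limma adjusted p of 0.000455, 0.0105, 0.0204 and 0.0404. HSP26 was not called there.

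The carbohydrate and iron lists leaned the same way by less. In trehalose and glycogen metabolism 7 of 17 genes were without overlap higher in snf2del (41.2%) and 0 the reverse, beside 9.77% and 4.82% of all genes, with a median of -0.15. TSL1, a regulatory subunit of trehalose synthase, had 65.8, 74.8 and 62.4 TPM in swi3del and 88.6, 92.0 and 77.0 TPM in snf2del (difference -0.34, limma adjusted p = 0.340). Among iron uptake and sparing genes 8 of 29 were without overlap higher in snf2del (27.6%) and 1 the reverse (3.45%), beside the same 9.77% and 4.82%, with a median of -0.19. FIT3, a cell wall mannoprotein that holds iron carriers, had 972, 948 and 1279 TPM in swi3del and 1396, 1972 and 1253 TPM in snf2del, with overlap. None of these genes was called, beside 4 of all 6394 genes. Against the wild types the medians for trehalose and glycogen were 1.11 in swi3del and 1.34 in snf2del. For iron they were 0.66 in swi3del and 0.52 in snf2del, the reverse order of the direct difference.

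Genes of protein synthesis lay slightly to the other side. Of 136 ribosomal protein genes 35 lay below 0 (25.7%, beside 56.9% of all genes), and the median was 0.08. Of 66 genes of ribosome biogenesis 14 lay below 0 (21.2%), and the median was 0.07. Both medians were smaller than the SD of the list's median deviation between libraries of a group, 0.096 and 0.097. In replicate 2 of snf2del alone the lists deviated by 0.12 and 0.14 from their group. Genes of a list are not independent replicates, so these shares do not measure the spread between cultures. Without overlap higher in swi3del were 8 and 6 of them, 5.88% and 9.09%, beside 4.82% of all genes, so the share of ribosomal protein genes was near that of all genes. The reverse held for 3 and 1 of them, 2.21% and 1.52%, beside 9.77% of all genes. Both lists had moved far more against the wild types, with medians of -0.77 and -0.95 in swi3del and -0.86 and -1.06 in snf2del.

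Over all 48 lists with a measured member, medians of the direct difference lay between -0.23 and 0.08, and 44 lists held no called gene. With only 4 of all 6394 genes called, most lists would hold none, so this count says little about the lists. The respiratory list had a median of 0.02 directly and of 0.99 and 1.16 against the 2 wild types. The glucose-repressed list had -0.10 directly and the histone list 0.05. The Gcn4 amino acid list had 8 of 43 genes without overlap higher in swi3del (18.6%) and 1 the reverse (2.33%), beside 4.82% and 9.77% of all genes, and a median of 0.02.

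**Figure D3:**
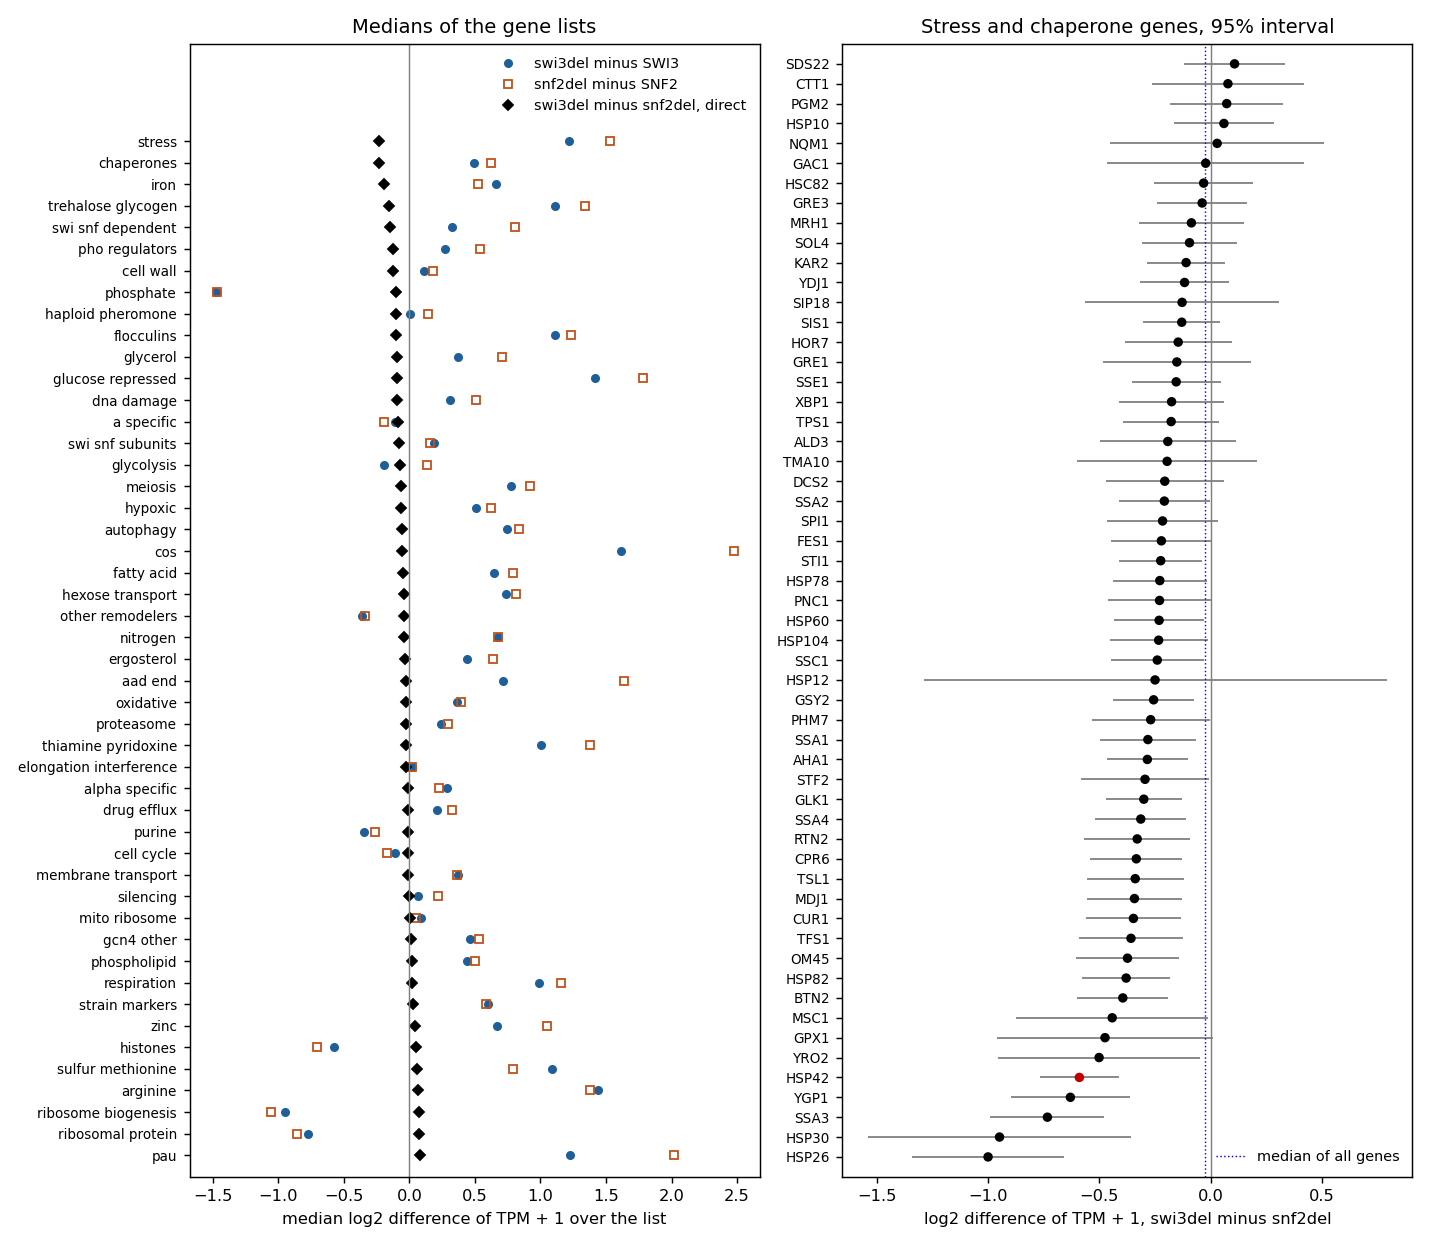
Left, median log2 difference of TPM + 1 over each gene list for each deletion against its wild type and for swi3del minus snf2del. Right, the same direct difference with its 95% interval for each of the 56 stress and chaperone genes; HSP42, in red, is called, and 51 of the 56 points lie below 0.

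Changes against the wild types were largely shared by both deletions. The marker LEU2 was high in both deletions and low in both wild types, so marker and deletion cannot be told apart in these changes. Of 6403 genes tested in the 12 libraries, 1452 (22.7%) were called with a 2-fold change in swi3del and 1666 (26.0%) in snf2del, and 1288 were in both lists, which is 88.7% of the first and 77.3% of the second. All 1288 had the same direction. Among them 1266 (98.3%) had a direct difference below 0.5 in size, with a median of 0.107 beside a median change of 1.5 in swi3del. Over all 6394 genes tested directly the median size of the difference was 0.0908, so the shared genes were not closer than genes at large. Across genes the changes had a Pearson r of 0.943 and a Spearman rho of 0.945 over 6403 genes, which are not independent replicates. The pairs of groups share no library.

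Of 18 genes listed as classical Swi/Snf targets, none was called between the deletions, beside 4 of all 6394 genes. The median was -0.14 directly, and 0.33 in swi3del and 0.81 in snf2del against the wild types. The direct interval lay within 0.5 on the log2 scale for 12 of the 18, beside 83.6% of all genes. Without overlap, 5 were higher in snf2del (27.8%, beside 9.77% of all genes) and 1 was higher in swi3del (5.56%, beside 4.82%). Those higher in snf2del were GAL10, HSP82, FLO11, SER3 and SSA4, 2 of which are also in the chaperone list, and HXT1 was higher in swi3del. HO encodes the nuclease that starts mating-type switching (YDL227C, chromosome IV 46271 to 48031). It had 3.48, 3.71 and 2.85 TPM in swi3del and 3.20, 3.15 and 2.51 TPM in snf2del, with overlap. Its difference of 0.14 had an interval from -0.40 to 0.67, and the wild types stood at 70.1 ± 3.17 and 73.3 ± 3.29 TPM. YHB1, a flavohaemoglobin against nitric oxide (YGR234W, chromosome VII 959904 to 961103), had 50.5, 43.6 and 44.4 TPM in swi3del and 35.1, 36.6 and 44.0 TPM in snf2del. Its groups overlapped by 1 library, and the wild types stood at 1653 ± 25.6 and 1487 ± 84.3 TPM. PHO5, the secreted acid phosphatase (YBR093C, chromosome II 429548 to 430951), had 23.3, 20.6 and 23.5 TPM in swi3del and 21.2, 27.8 and 28 TPM in snf2del, with overlap.

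SUC2, the invertase that splits sucrose (YIL162W, chromosome IX 37385 to 38983), had 139, 151 and 136 TPM in swi3del and 157, 141 and 157 TPM in snf2del. The groups overlapped, and both lay above the wild types, at 66.6 ± 6.58 and 56.3 ± 4.43 TPM. INO1, the first enzyme of inositol synthesis (YJL153C, chromosome X 134332 to 135933), had 24.1, 21.7 and 19.8 TPM in swi3del and 21.9, 25.1 and 21.9 TPM in snf2del, and the interval of its difference ran from -0.31 to 0.17. Both deletions held INO1 above the wild types, at 7.38 ± 0.683 TPM in SWI3 and 5.43 ± 0.762 TPM in SNF2. FLO11, the adhesin of invasive growth (YIR019C, chromosome IX 389572 to 393675), had 26.1, 29.3 and 24.0 TPM in swi3del and 33.8, 32.3 and 29.9 TPM in snf2del. Its libraries did not overlap, but the difference of -0.27 ± 0.10 was not called (limma adjusted p = 0.483).

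GUT2, the mitochondrial glycerol-3-phosphate dehydrogenase (YIL155C, chromosome IX 51759 to 53708), had 295, 319 and 278 TPM in swi3del and 361, 357 and 340 TPM in snf2del, beside 14.2 ± 0.5 and 16.4 ± 2.25 TPM in the wild types. The groups did not overlap, and the difference of -0.25 ± 0.08 was not called (limma adjusted p = 0.393). INA1 (YLR413W) had 22.5, 23.4 and 22.1 TPM in swi3del and 21.7, 26.0 and 20.3 TPM in snf2del, with an interval from -0.24 to 0.25. HTB1, a histone H2B (YDR224C), had 443, 537 and 556 TPM against 437, 506 and 519 TPM. HTA1, its H2A partner (YDR225W), had a difference of 0.13 with an interval from -0.06 to 0.31. Both histone genes overlapped between the deletions. They lie in the stretch of chromosome IV, from GCD6 to EXG2, described further below. HTB1 stood at 832 ± 22.3 TPM in SWI3 and 1157 ± 104 TPM in SNF2, and HTA1 at 788 ± 16.9 and 778 ± 47.9 TPM.

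**Figure D4:**
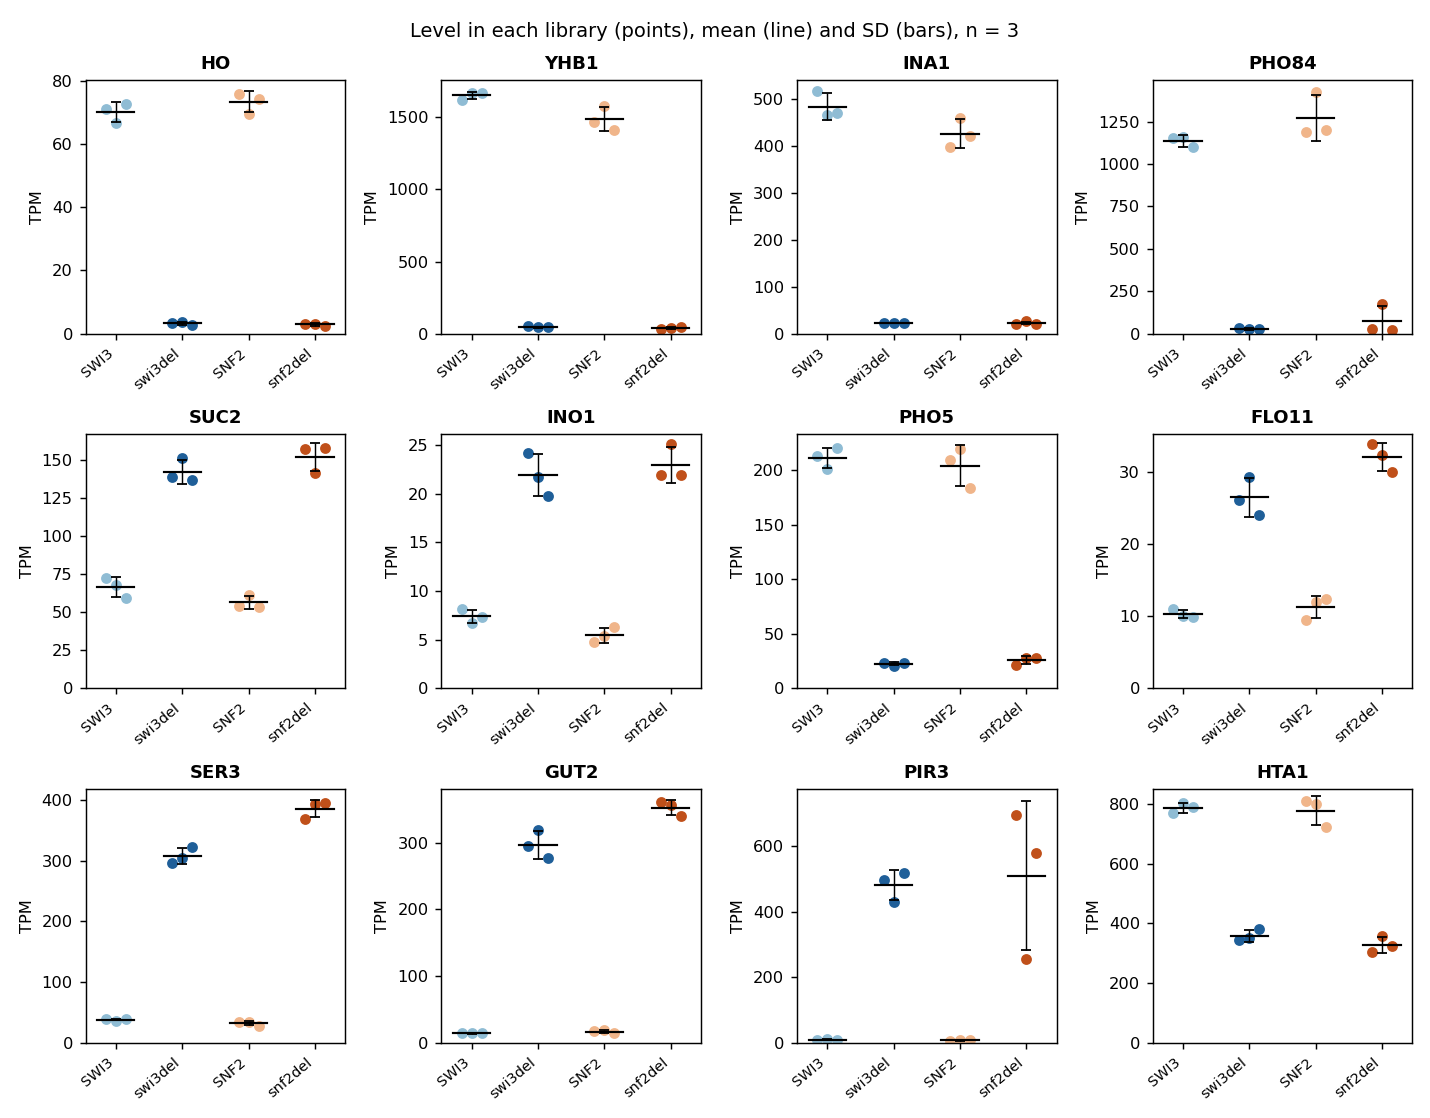
Level in TPM (y axis, from 0) of 12 genes in each library of SWI3, swi3del, SNF2 and snf2del; points are libraries, lines the mean and bars the SD, n = 3. The deletions stand together and apart from both wild types, for example INA1 at 20.3 to 26.0 TPM in the deletions and at means of 484 and 426 TPM in the wild types; single libraries of snf2del stand out for PHO84 and PIR3.

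The series concerns transcriptional interference, in which transcription across a promoter lowers its use, and SER3 is its textbook case in yeast: transcription of the noncoding SRG1 runs through the SER3 promoter and keeps nucleosomes on it. SER3 encodes a phosphoglycerate dehydrogenase of serine synthesis (YER081W; chromosome V, 322686 to 324095, plus strand). It had 297, 304 and 323 TPM in swi3del and 369, 393 and 395 TPM in snf2del. The groups did not overlap, but the log2 difference of -0.33 ± 0.08 was not called (limma adjusted p = 0.219), and its interval ran from -0.49 to -0.16. With all 21 libraries in the fit it was called (limma adjusted p = 0.0460). The wild types stood at 37.9 ± 1.35 TPM in SWI3 and 31.6 ± 3.31 TPM in SNF2, and the rise was 2.99 in swi3del and 3.57 in snf2del on the log2 scale. The test of the difference of these rises called it, at -0.58 (limma adjusted p = 0.00929). SRG1 (chromosome V 322212 to 322762) had 63.0, 53.6 and 60.0 TPM in swi3del and 57.9, 40.2 and 46.1 TPM in snf2del. These groups overlapped, and the difference of 0.30 was not called (limma adjusted p = 0.524). SRG1 and SER3 share 77 annotated bases on 1 strand, so their reads cannot be wholly told apart. SER33, the paralog of SER3, had a difference of 0.13 and was not called. Of 20 listed elongation and interference genes none was called, beside 4 of all 6394 genes, and the median was -0.02.

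The 300 bases before SER3 (chrV:322386-322685, plus strand) are shown because all 300 lie inside the annotated SRG1.
SER3: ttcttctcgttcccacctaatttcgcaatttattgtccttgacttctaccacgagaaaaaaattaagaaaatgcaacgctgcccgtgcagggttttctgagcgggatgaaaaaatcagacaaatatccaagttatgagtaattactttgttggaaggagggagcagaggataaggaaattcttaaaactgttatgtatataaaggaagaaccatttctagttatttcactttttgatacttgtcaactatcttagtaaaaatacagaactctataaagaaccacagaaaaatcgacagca
Neither AGGGG nor a heat-shock pair as spelled above occurs in it.

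The difference of the 2 deletion effects, swi3del minus SWI3 set against snf2del minus SNF2, gave another count. It was called for 110 of 6403 genes (1.72%), 48 with the more positive change in swi3del and 62 with the more negative. For 90 of them the direct difference was below 0.25 in size, and 102 were also called between the 2 wild types. The effect difference is the direct difference plus the wild-type difference, SNF2 minus SWI3, from the same libraries. This overlap is therefore largely built in and is no separate result. Small direct differences were common, with a median size of 0.0908 over all 6394 genes. AQR1 and SWI3 were the 2 genes called both in this way and directly. The median size of the effect difference over the 110 genes was 0.938, and of their direct difference 0.147.

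These genes were grouped on the chromosomes. On chromosome IV, 39 of them lay among 48 genes from GCD6 to EXG2 (884727 to 979209), all with the more positive change in swi3del. The median over the 48 genes was 0.92 between the wild types, SNF2 minus SWI3, and 0.00 between the deletions. ADK1, the adenylate kinase, had 669 ± 9.41 TPM in SWI3 and 1257 ± 36.5 TPM in SNF2, but 532 ± 30.7 TPM in swi3del and 462 ± 17.0 TPM in snf2del. COX20, a factor for cytochrome oxidase assembly, had 17.1 ± 2.34 TPM in SWI3 and 41.3 ± 1.53 TPM in SNF2, and 37.2, 37.2 and 36.6 TPM in swi3del against 36.5, 34.5 and 38.7 TPM in snf2del. The chaperone genes AHA1 and HSP78 lie in this stretch. Their effect differences, 0.61 and 0.79, were called, opposite in sign to their direct differences of -0.28 and -0.23.

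Another 45 lay within 20 kb of a chromosome end, all with the more negative change in swi3del. ADH7, a cinnamyl alcohol dehydrogenase, had 15.9 ± 0.523 TPM in SWI3 and 0.585 ± 0.137 TPM in SNF2. It had 30.9, 32.4 and 33.0 TPM in swi3del and 41.3, 39.9 and 38.5 TPM in snf2del, a direct difference of -0.30 beside an effect difference of -3.72. RDS1, a zinc-cluster transcription factor, had 16.2 ± 1.76 TPM in SWI3 and 0.548 ± 0.249 TPM in SNF2, while the deletions overlapped. The genes of both regions were named after their values were seen. Without the stretch and the ends, 9 and 17 calls were left. No cause of the differences between the wild types was tested.

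**Figure D5:**
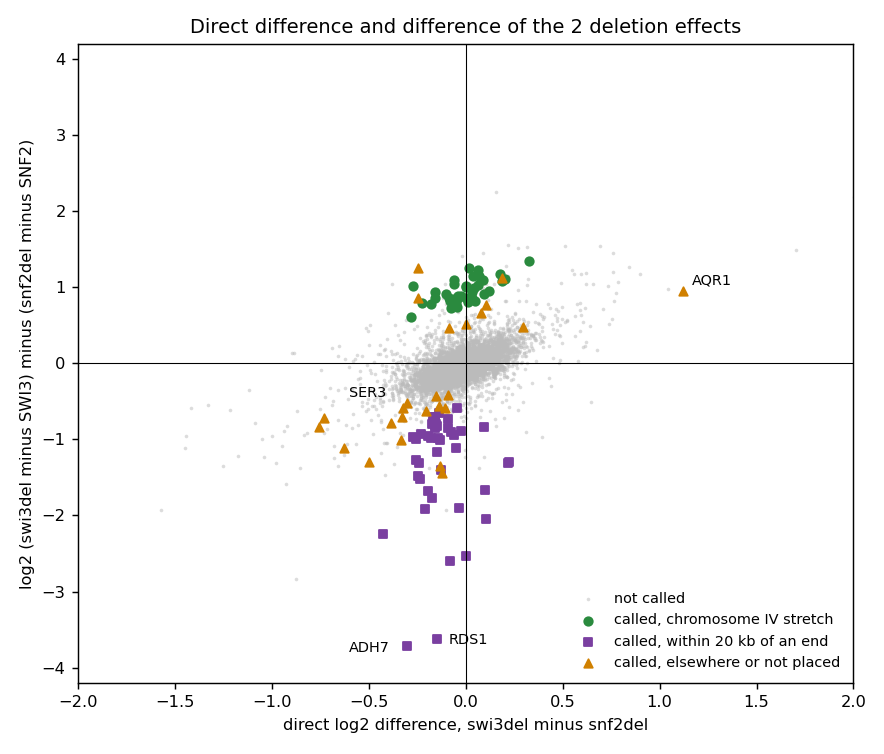
Direct log2 difference of swi3del minus snf2del (x axis) and the difference of the 2 deletion effects (y axis) for each gene, in log2 of TPM + 1; coloured points are called for the latter. Points of the chromosome IV stretch and of the chromosome ends lie near 0 on the x axis; SWI3, YBR191W-A, YEL020C-B and YGL123C-A lie outside the axes.

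Between the deletions, medians of the direct difference over the 16 chromosomes lay between -0.08, on chromosome XII, and -0.0048, on chromosome IV. Over the 228 genes near ends the median was -0.08, and the 4 called genes lay on chromosomes IV, V, X and XIV. Among 5640 overlapping runs of 20 neighbouring genes the lowest and the highest median were both on chromosome XII, at -0.19 (523632 to 559289) and 0.18 (432823 to 467569). These runs were picked as the extremes and were not tested. The highest run takes in ribosomal RNA genes, whose levels varied widely between libraries. RDN18-1 had 1375, 3385 and 2732 TPM in swi3del and 1764, 940 and 2589 TPM in snf2del. Its interval ran from -0.96 to 2.01.

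For some genes 1 library set the spread. PHO84, which takes up phosphate when it is scarce (YML123C; chromosome XIII, 24037 to 25800), had 32.0, 26.9 and 25.1 TPM in swi3del and 25.5, 175 and 23.6 TPM in snf2del. Replicate 2 of snf2del stood far above the other 5 libraries, and the interval ran from -3.24 to 1.73, while the wild types stood at 1135 ± 32.8 and 1271 ± 133 TPM. The phosphate list as a whole deviated upward in that library, by a median of 0.20 on the log2 scale from its group. NCE103, the carbonic anhydrase (YNL036W, chromosome XIV 559814 to 560479), had 845, 1350 and 554 TPM in swi3del and 398, 2483 and 415 TPM in snf2del. Replicate 2 was highest in both groups. PIR3, a cell wall protein (YKL163W, chromosome XI 144401 to 145378), had 496, 431 and 518 TPM in swi3del and 696, 255 and 580 TPM in snf2del, with replicate 2 lowest in both groups.

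The other genes of widest spread, at a mean of at least 10 TPM, were small or uncharacterised reading frames. YLR154C-H ranged from 12.1 to 319 TPM in swi3del and from 15.3 to 390 TPM in snf2del. YBR191W-A had 3565, 2355 and 808 TPM in swi3del and 887, 787 and 150 TPM in snf2del. Replicate 3 was lowest in both groups, and the difference of 2.0 ± 1.02 was not called (limma adjusted p = 0.624). YDR509W, YEL020C-B, YHL034W-A, YGR115C, YGR018C and YNL114C had intervals wider than 2-fold either way and overlapping groups. In the fit reported here none of these genes was called, though their intervals reached beyond 2-fold. A fit with a block for replicate number called YBR191W-A, with the same difference (limma adjusted p = 0.0106).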

How the data were processed

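RNA-seq levels were compared in 3 swi3del and 3 snf2del libraries. The deposited table holds TPM for 6407 genes, per the file headers; the submitters' processing notes name R64 and sacCer3 as builds and DESeq2, HISAT2 and StringTie as tools, with neither version nor role. TPM keeps no depth, so no counting error can be given. The authors' comparison tables were not used, and no sample column was left unused (0).

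The log2 scale of TPM + 1 was used, and a gene was tested where 3 or more of the 6 libraries reached 1 TPM. The model was limma's (limma 3.58.1, statmod 1.5.0, R 4.3.3) with moderation trended and robust; it was tested on simulated data. The difference of the 2 deletion effects and the changes against the wild types came from a fit of 12 libraries. Replicates were grown on separate days, per the labels' protocols. Members and gene lists were chosen with earlier results of these data known. Named genes were the subunits, LEU2, called genes with no overlap and a mean of at least 10 TPM, the 10 genes of widest spread and 13 genes put first by earlier results. Other genes were chosen after their values were seen. Positions are from the R64 annotation (5951 names matched, 456 did not); upstream sequences are from RefSeq's R64 genome; similar copies were found with BLAST 2.17.0. Figures used Python 3.11.15 and matplotlib 3.10.9. Alternatives were other pseudocounts (0.1 and 5), filters, scalings and moderation, array weights, a replicate block, more libraries in the fit, and each library left out.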

Additional observations from a re-analysis of the deposited data

Results flagged for a closer look

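The change against the wild type differed between the 2 deletions, by the test of that difference, for genes named in the report. On the log2 scale, swi3del minus snf2del, the difference of effects was -4.67 for SWI3, the deleted gene, 0.95 for AQR1, -0.58 for SER3, -0.72 for SSA3 and -1.11 for YGP1. It was -3.72 for ADH7 and -3.62 for RDS1, near chromosome ends, and 1.11 for ADK1, 1.25 for COX20, 0.61 for AHA1 and 0.79 for HSP78, in the chromosome IV stretch. The limma adjusted p lay between 2.25e-11 for SWI3 and 0.0251 for SSA3. For the last 6 the wild types differed and the deletions were close. For AQR1 and SSA3 the wild types stood close to each other and the deletions apart.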

How the results depend on the processing

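Calls higher in swi3del and in snf2del, 1 and 3 as reported, were 0 and 1 with plain moderation, 3 and 14 with array weights and 7 and 22 with all 21 libraries in the fit, where SSA3, YGP1, HSP30, HSP82 and SER3 were called too. By the difference of the 2 deletion effects they were 48 and 62, or 9 and 17 without the chromosome IV stretch and the ends, a choice made after seeing the data. Leaving out each library gave 0 to 2 and 1 to 8. Other pseudocounts, filters and scalings gave 1 call in swi3del and 2 to 4 in snf2del. The causes were not tested. The share of intervals inside 2-fold lay between 95.3% and 98.6% in the alternatives that kept the direct difference, and was 89.1% for the difference of the 2 deletion effects, another quantity. SWI3, the gene deleted in swi3del, was called in all 14 alternatives that tested it. AQR1 was called in 14 of 17, HSP42 in 10 of 17 and YER188C-A in 5 of 17. The direction of these genes was the same in every alternative that tested them. The stress median lay between -0.33 and -0.21 and the chaperone median between -0.32 and -0.19.

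With a replicate block there were 2 calls higher in swi3del, AQR1 and YBR191W-A, and 1 higher in snf2del, SWI3. Deviations of same-numbered libraries correlated at 0.134, 0.0754 and 0.127 across genes, and each library correlated best with its own number, a hint from the data and not from the design, so the numbers were not taken as pairs. Of 459 genes below 10 TPM, 113 had intervals reaching beyond 2-fold; the depth is unknown, and its part in this was not tested.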
